A study of Mus musculus with 5 samples.

Results

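The ERK pathway feedback genes described here are 10 transcripts of murine lung cancer-associated fibroblasts (CAFs), taken by symbol from a table of 21835 genes. They are the MAP kinase phosphatases *Dusp1*, *Dusp4*, *Dusp5* and *Dusp6*, the Sprouty and SPRED inhibitors *Spry1*, *Spry2*, *Spry4* and *Spred1*, and the ETS transcription factors *Etv4* and *Etv5*. All 10 were in the table and all 10 were expressed highly enough to be tested. RNA sequencing compared 2 samples of CAFs given an empty lentiviral vector (CAF-vec, labelled as WT control) with 3 samples given the same kind of vector carrying miR-200a, miR-200b and miR-429 (CAF-200, labelled as miR-200 overexpression). Both groups were lung fibroblasts cultured in alpha-MEM with serum and are described as drug-selected populations. The labels name a vector with neomycin resistance, whereas the study's methods name one with hygromycin resistance. In the methods, the cell culture section has it brought into lung fibroblasts (LFs), whereas the RNA sequencing section names CAFs. The study's results also describe overexpression in murine lung CAFs. The methods also describe triplicate RNA, whereas 2 CAF-vec samples were analysed here. Neither source states that the samples came from separate cultures, so *p* values measure the spread between these samples only.

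ERK, the last kinase of the Ras, RAF and MEK cascade, carries signals from growth factor receptors to the nucleus. Among the genes it induces are inhibitors of the cascade itself. Dual-specificity phosphatases remove the activating phosphates from MAP kinases, whereas Sprouty and SPRED proteins act upstream, between the receptor and RAF. ETV4 and ETV5, of the PEA3 group of ETS factors, are transcribed downstream of FGF receptors and other ERK-activating receptors. The levels of these transcripts are therefore widely used as a readout of ERK output, although each of them also responds to other inputs.

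The overexpressed microRNAs carry 2 different seeds, the bases at positions 2 to 8 that pair with a target mRNA. The mature sequences are shown because the seeds were searched for in the members. They are from RefSeq (GRCm38.p6, chromosome 4, minus strand, miR-429 at 156053916 to 156053937, miR-200a at 156054911 to 156054932 and miR-200b at 156055685 to 156055706), written 5′ to 3′ with the seed in capitals. miR-200b and miR-429 share 1 seed, and miR-200a has the other.
mmu-miR-200a-3p: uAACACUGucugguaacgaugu
mmu-miR-200b-3p: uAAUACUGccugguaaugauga
mmu-miR-429-3p: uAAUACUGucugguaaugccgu

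A match to a seed was present in the longest annotated 3′-UTR of 7 of the 10 members (GENCODE M21, GRCm38), against 30.3% of the 12060 genes tested that have an annotated 3′-UTR. The median length of these UTRs was 1110 bases in the members and 1174 bases in all genes tested. *Dusp1*, *Dusp4* and *Etv5* had 1 match each to the seed shared by miR-200b and miR-429, and *Dusp5*, *Dusp6* and *Etv4* had 1 each to the seed of miR-200a. *Spry4*, with 2 matches to the miR-200a seed, is named only. *Spry1*, *Spry2* and *Spred1* had none. The 6 single matches are shown with the flanking transcript bases, in transcript sense and with the match in capitals.
Dusp1: cttgacacacccacCAGTATTaaccattc
Dusp4: atccttctaggccaCAGTATTatacttag
Etv5: gatgatgaacatgaCAGTATTttgttttg
Dusp5: aatgtgaagagaagCAGTGTTgcttggtt
Dusp6: cttcaatcacttgaCAGTGTTtgtttggc
Etv4: ccaccacagagatcCAGTGTTctattctg
The matches lie on the minus strand of chromosome 17 for *Dusp1* (26505929 to 26505935), on the plus strand of chromosome 8 for *Dusp4* (34819275 to 34819281), on the minus strand of chromosome 16 for *Etv5* (22382790 to 22382796), on the plus strand of chromosome 19 for *Dusp5* (53542340 to 53542346), on the plus strand of chromosome 10 for *Dusp6* (99266828 to 99266834) and on the minus strand of chromosome 11 for *Etv4* (101770056 to 101770062). A match describes the letters only, and binding was not measured in these data.

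Expression is given in CPM, the authors' normalized counts on a common library total, and differences as log2 fold-changes of CPM + 0.5 with limma's adjusted *p* over all 12175 genes tested. A gene is said to have risen or fallen at an adjusted *p* under 0.05, and is called where it also reached an adjusted *p* under 0.01 with a log2 fold-change beyond 1. Of the 10 members, 5 rose in CAF-200 (*Dusp1*, *Dusp5*, *Dusp6*, *Etv4* and *Etv5*), as did 11.9% of all genes tested. *Spry1* was the 1 member that fell, as did 18.6% of all genes tested, and 4 passed in neither direction. Together 6 of 10 members passed, against 30.5% of all genes tested. *Etv4* was the 1 member called higher, against 2.37% of all genes tested, and 0 members were called lower, against 2.35%, so that 1 of 10 was called in either direction, against 4.72%. No member had a log2 fold-change below -1, at any *p* from limma. After centring on each sample's median, 365 genes were called higher and 228 lower, against 289 and 286 without it, and the same numbers of members rose and fell. The median log2 fold-change of the members was 0.34 and that of all genes tested was -0.094.

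In 6 members the CAF-200 values did not overlap the CAF-vec values, 5 lying above and 1 below, as was the case for 24.3% and 37.3% of all genes tested, or 61.6% in either direction. These were the members that rose and the member that fell. Summed over the 10 members, the level was 286 and 289 CPM in CAF-vec and 383, 356 and 416 CPM in CAF-200. The phosphatases and the ETS factors made up this difference. The 4 phosphatases summed to 163 and 166 CPM in CAF-vec and to 231, 214 and 249 CPM in CAF-200, and both ETS factors together to 22.8 and 25.8 CPM and to 55.9, 45.9 and 62.6 CPM. The Sprouty and SPRED genes together were at 100.5 and 97.5 CPM in CAF-vec and at 95.9, 96.0 and 103.9 CPM in CAF-200, so their sums overlapped. In bulk RNA, a change in how many cells express a gene and a change in the RNA per cell cannot be told apart.

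**Figure D1:**
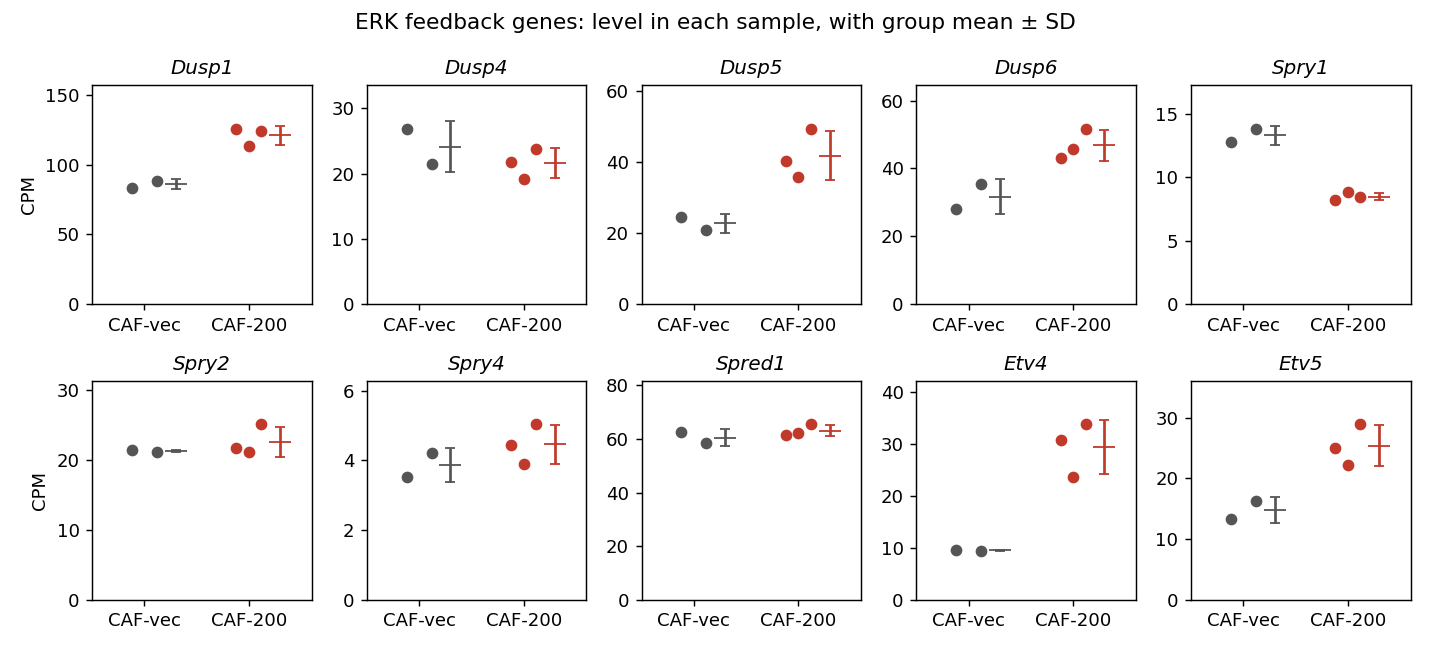
Level of each of the 10 ERK feedback genes (vertical axes, CPM, each starting at 0) in the 2 CAF-vec and 3 CAF-200 samples, with points for samples and bars for the group mean ± SD. The CAF-200 points lie above both CAF-vec points for *Dusp1*, *Dusp5*, *Dusp6*, *Etv4* and *Etv5*, below them for *Spry1*, and overlap them for the other 4 genes.

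Among the ETS factors, *Etv4* (ENSMUSG00000017724, chromosome 11 of GRCm38, 101769742 to 101785371, minus strand) had the largest change of the members. It was at 9.52 and 9.44 CPM in CAF-vec and at 30.8, 23.6 and 33.8 CPM in CAF-200. Each CAF-200 sample was thus well above both CAF-vec samples, which differed little from each other. The CAF-vec mean was 9.48 ± 0.0555 CPM (SD, n = 2) and the CAF-200 mean 29.4 ± 5.20 CPM (SD, n = 3), 3.10-fold higher, with a log2 fold-change of 1.57 (standard error 0.163, 95% interval 1.16 to 1.97, adjusted *p* = 0.00370, limma). Of all genes tested, 99.0% had a lower log2 fold-change. With any 1 CAF-200 sample left out, the adjusted *p* was 0.0177 to 0.0284, above the threshold for a call, while the log2 fold-change was 1.46 to 1.71.

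*Etv5* (ENSMUSG00000013089, chromosome 16, 22381309 to 22439719, minus strand), its close paralogue, was at 13.3 and 16.3 CPM in CAF-vec and at 25.1, 22.3 and 28.9 CPM in CAF-200. The log2 fold-change was 0.76 (standard error 0.149, 95% interval 0.39 to 1.13, adjusted *p* = 0.0165, limma). The ratio of *Etv4* to *Etv5* CPM was 0.714 and 0.579 in CAF-vec and 1.23, 1.06 and 1.17 in CAF-200, so *Etv5* had the higher CPM of the pair in CAF-vec and *Etv4* in CAF-200. The adjusted *p* of *Etv5* was 0.0677 without CAF-200 replicate 1 and 0.0703 without CAF-200 replicate 3.

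Of the phosphatases, *Dusp5* (ENSMUSG00000034765, chromosome 19, 53529109 to 53542431, plus strand), which encodes a nuclear phosphatase selective for ERK, rose most. It was at 24.6 and 20.8 CPM in CAF-vec and at 40.5, 35.7 and 49.4 CPM in CAF-200. The lowest CAF-200 value thus exceeded the higher CAF-vec value by 0.53 on the log2 scale. The log2 fold-change was 0.86 (standard error 0.161, 95% interval 0.46 to 1.26, adjusted *p* = 0.0145, limma), and the adjusted *p* was 0.0589 without CAF-200 replicate 1 and 0.0542 without CAF-200 replicate 3.

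*Dusp6* (ENSMUSG00000019960, chromosome 10, 99263231 to 99267489, plus strand), the cytoplasmic phosphatase selective for ERK, was at 28.0 and 35.3 CPM in CAF-vec and at 42.9, 45.7 and 51.7 CPM in CAF-200. Its CAF-vec samples differed by 0.33 on the log2 scale, more than its CAF-200 samples did (0.27). The log2 fold-change was 0.56 (standard error 0.138, 95% interval 0.22 to 0.90, adjusted *p* = 0.0305, limma). It was 0.40 without CAF-vec replicate 1 and 0.72 without CAF-vec replicate 2, so its size depended on which control was used, and with any 1 CAF-200 sample left out its adjusted *p* was 0.0757 to 0.118.

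*Dusp1* (ENSMUSG00000024190, chromosome 17, 26505590 to 26562128, minus strand) encodes a nuclear phosphatase that also acts on the stress-activated kinases p38 and JNK. It was at 83.3 and 88.3 CPM in CAF-vec and at 126, 113 and 124 CPM in CAF-200, the highest level of the members in every sample. The log2 fold-change was 0.49 (standard error 0.0918, 95% interval 0.26 to 0.72, adjusted *p* = 0.0144, limma), and with any 1 CAF-200 sample left out the adjusted *p* was 0.0574 to 0.0844. *Dusp1* overlaps *Ergic1* on the opposite strand in the annotation, as well as a sense intronic transcript and a processed pseudogene on its own strand, which strand cannot separate. *Dusp5* overlaps an antisense gene, and *Spry4* overlaps a pair of genes annotated as miscellaneous RNA on the opposite strand. The libraries were stranded, but the strand setting of the counting is not given in the sources used here, so reads of such partners may not have been told apart.

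*Dusp4* (ENSMUSG00000031530, chromosome 8, 34807297 to 34819894, plus strand), which encodes a nuclear phosphatase like *Dusp1*, was at 26.9 and 21.4 CPM in CAF-vec and at 21.8, 19.2 and 23.8 CPM in CAF-200. The groups overlapped, and the log2 fold-change was -0.15 (95% interval -0.51 to 0.20, adjusted *p* = 0.442, limma). Without CAF-vec replicate 1 it was 0.0073, the 1 change of direction among the members. The ratio of *Dusp5* to *Dusp4* CPM was 0.915 and 0.971 in CAF-vec and 1.86, 1.86 and 2.07 in CAF-200. The phosphatases therefore did not move as 1 block.

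**Figure D2:**
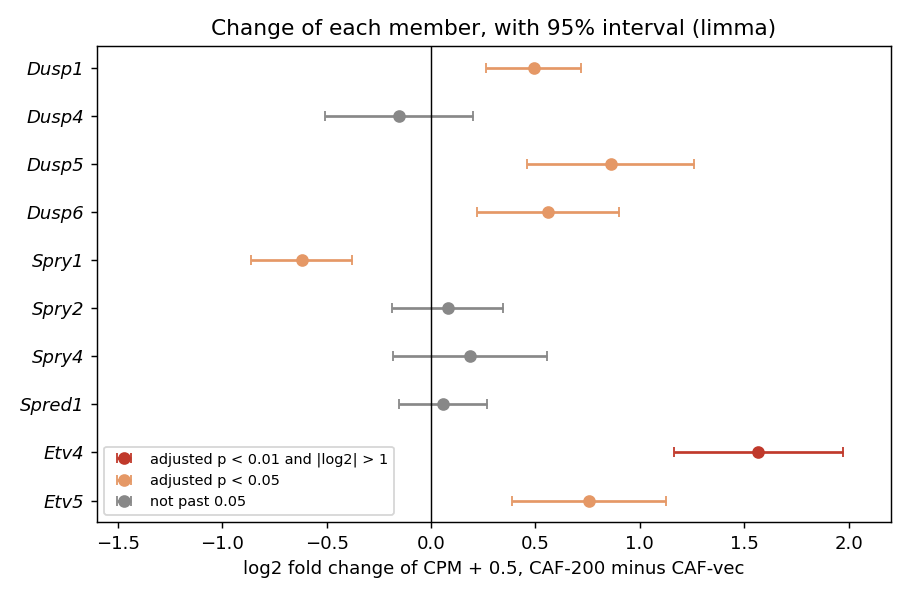
Log2 fold-change of CPM + 0.5 between CAF-200 and CAF-vec (horizontal axis) for each of the 10 members, with limma's 95% interval as a bar and the threshold passed as colour. *Etv4* at 1.57 stands furthest right, *Spry1* at -0.62 furthest left, and the intervals of *Dusp4*, *Spry2*, *Spry4* and *Spred1* include 0.

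Of the Sprouty and SPRED genes, 1 fell and 3 passed in neither direction. *Spry1* (ENSMUSG00000037211, chromosome 3, 37639947 to 37644598, plus strand), an inhibitor of receptor tyrosine kinase signalling, was at 12.8 and 13.8 CPM in CAF-vec and at 8.19, 8.81 and 8.43 CPM in CAF-200. Every CAF-200 value lay below both CAF-vec values, by at least 0.51 on the log2 scale. The log2 fold-change was -0.62 (standard error 0.0969, 95% interval -0.86 to -0.38, adjusted *p* = 0.00902, limma), which did not reach the fold-change threshold, and the adjusted *p* was 0.0516 to 0.0576 with any 1 CAF-200 sample left out. *Spry1* overlaps an unclassified transcript on the opposite strand in the annotation.

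*Spry2* (ENSMUSG00000022114, chromosome 14, 105891947 to 105896819, minus strand), the paralogue of *Spry1*, was at 21.4 and 21.1 CPM in CAF-vec and at 21.6, 21.1 and 25.0 CPM in CAF-200. Its log2 fold-change was 0.080 (95% interval -0.19 to 0.35, adjusted *p* = 0.590, limma). The ratio of *Spry2* to *Spry1* CPM was 1.68 and 1.53 in CAF-vec and 2.64, 2.39 and 2.97 in CAF-200. The balance of the 2 paralogues thus differed between the groups in every sample.

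*Spry4* (ENSMUSG00000024427, chromosome 18, 38586247 to 38601415, minus strand) was the lowest of the members, at 3.51 and 4.20 CPM in CAF-vec and at 4.45, 3.90 and 5.03 CPM in CAF-200. The groups overlapped, with a log2 fold-change of 0.19 (95% interval -0.18 to 0.55, adjusted *p* = 0.368, limma). *Spred1* (ENSMUSG00000027351, chromosome 2, 117121374 to 117182279, plus strand), which recruits neurofibromin to the membrane to restrain Ras, was at 62.8 and 58.3 CPM in CAF-vec and at 61.7, 62.2 and 65.4 CPM in CAF-200. Its log2 fold-change was 0.059 (95% interval -0.15 to 0.27, adjusted *p* = 0.615, limma), so a change beyond 0.27 in either direction lies outside its interval.

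Levels of different genes were compared per kilobase of annotated exon (mean CPM divided by the joined exon length of the gene in GENCODE M21). *Dusp1* was highest in both groups, at 25.9 ± 1.07 CPM per kilobase (SD, n = 2) in CAF-vec and 36.5 ± 2.05 (SD, n = 3) in CAF-200. In CAF-vec it was followed by *Spry2*, *Dusp6*, *Dusp5*, *Spred1* and *Dusp4*, between 10.2 and 8.82 CPM per kilobase, whose neighbours in this order did not differ beyond their SDs. *Spry1* (4.58 ± 0.259), *Etv5* (3.61 ± 0.515) and *Etv4* (3.05 ± 0.0179) came next, and *Spry4* was last at 0.811 ± 0.103. In CAF-200, *Etv4* ranked 5 at 9.47 ± 1.68 CPM per kilobase, between *Spry2* (10.8 ± 1.03) and *Spred1* (9.30 ± 0.299) and within its SD of both. *Spry1* fell to 2.92 ± 0.106 and ranked below *Etv5* (6.19 ± 0.812).

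The order of the CAF-200 samples was compared across members. CAF-200 replicate 3 had the highest value of the 3 in 8 of the 10 members, against 30% of all genes tested, and CAF-200 replicate 2 had the lowest in 7, against 38.3%. The exceptions for the highest value were *Dusp1* and *Spry1*. Among 11 other feedback relatives, replicate 3 was highest in 7 and replicate 2 lowest in 8. Among 19 other ERK-responsive genes listed further on, replicate 3 was highest in 11 and replicate 2 lowest in 12, whereas among 21 genes of the cascade replicate 3 was highest in 2. The genes share the library they were measured in, so these counts are a description. Without CAF-200 replicate 3 the log2 fold-changes of the 5 members that rose were 0.47 (*Dusp1*), 0.73 (*Dusp5*), 0.49 (*Dusp6*), 1.46 (*Etv4*) and 0.66 (*Etv5*).

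Set beside the seed matches above, all 5 members that rose in CAF-200 carry a match to a seed of the overexpressed microRNAs, and *Spry1*, which fell, carries none. Of the 4 members that passed in neither direction, *Dusp4* and *Spry4* carry a match and *Spry2* and *Spred1* do not. Since 7 of the 10 members carry a match, most of any subset would be likely to carry one. Any relation between matches and direction was not tested. *Zeb1*, a target of miR-200 in epithelial cells, was at 43.5 and 50.7 CPM in CAF-vec and at 37.8, 37.5 and 34.1 CPM in CAF-200 (a change of -0.36 on the log2 scale, adjusted *p* = 0.0504, limma). Its groups did not overlap, but the adjusted *p* was just above 0.05. It was 0.152 after quantile normalization, 0.137 after centring and 0.222 with the replicate number as a block (limma). With any 1 CAF-200 sample left out it was 0.134 to 0.183 (limma). With 1 CAF-vec sample left out, the log2 fold-change of *Zeb1* was between -0.47 and -0.25. *Zeb2* was at 46.2 and 29.8 CPM and at 31.9, 31.8 and 31.1 CPM, and its change of -0.23 on the log2 scale (adjusted *p* = 0.374, limma) became 0.083 without CAF-vec replicate 1. The table has no row named for the 3 microRNA genes, so their level was not checked here. The paper did measure the 3 microRNAs by RT-qPCR in CAF-vec and CAF-200 and describes them as overexpressed. By RT-qPCR it also reported lower *Zeb1* mRNA in CAF-200.

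**Figure D3:**
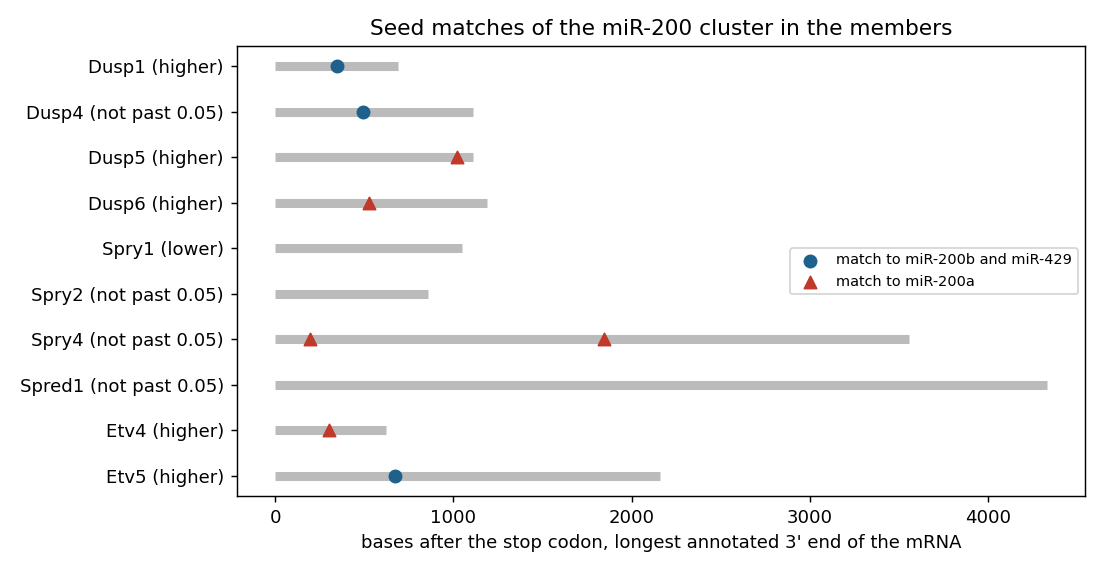
Longest annotated 3′-UTR of each member drawn to scale from the stop codon (horizontal axis, bases), with circles for matches to the miR-200b and miR-429 seed, triangles for matches to the miR-200a seed and the change in CAF-200 in brackets. The 5 members marked as higher each carry 1 match, and *Spry1*, marked as lower, carries none.

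Promoters from RefSeq (GRCm38.p6, 250 bases before to 50 bases after the start site) were found for 7 of the 10 members, with 2 for *Etv5*. They were searched on both strands for the cAMP response element (CRE) TGACGTCA, the CArG box bound by serum response factor, the ETS motif CCGGAAG, the AP-1 motif TGANTCA, the EGR motif GCGTGGGCG and the GC box GGGCGG. A CRE was found in the *Dusp1* promoter at -143 from the start site, and in 1.79% of the 32851 promoters. Directly adjacent CArG boxes were found in the *Dusp5* promoter at -82 and -72, and at least 1 CArG box in 1.63% of all promoters. No member's promoter held the ETS motif (8.86% of all promoters), the AP-1 motif (7.81%) or the EGR motif (0.612%), which says only that these letters are not in this window. The GC box was in promoters of *Dusp1*, *Dusp5*, *Etv5*, *Spred1* and *Spry1*, and in 35.7% of all promoters. The promoters of *Dusp1* (chr17:26508423-26508722, minus strand) and *Dusp5* (chr19:53528895-53529194, plus strand) are shown because both genes rose and hold the CRE or the CArG boxes, in capitals.
Dusp1: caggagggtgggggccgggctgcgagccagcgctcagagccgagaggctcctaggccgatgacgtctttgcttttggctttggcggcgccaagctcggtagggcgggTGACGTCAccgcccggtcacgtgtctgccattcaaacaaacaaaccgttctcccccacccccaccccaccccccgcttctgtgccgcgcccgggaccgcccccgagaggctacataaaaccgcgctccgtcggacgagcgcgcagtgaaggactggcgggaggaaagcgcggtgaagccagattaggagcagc
Dusp5: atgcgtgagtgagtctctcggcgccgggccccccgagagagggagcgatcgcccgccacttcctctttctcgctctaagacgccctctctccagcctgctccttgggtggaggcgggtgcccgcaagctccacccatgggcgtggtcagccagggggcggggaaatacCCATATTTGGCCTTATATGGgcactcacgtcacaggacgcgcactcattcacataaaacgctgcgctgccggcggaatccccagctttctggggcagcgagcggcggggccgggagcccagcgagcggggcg

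Across all genes tested, 11.9% rose and 18.6% fell. Of 8 further MAP kinase phosphatases, 7 were tested, 3 fell, 0 rose at an adjusted *p* under 0.05 from limma and their median log2 fold-change was -0.11. *Dusp3*, a small phosphatase of ERK and JNK, was called lower, at 66.4 and 45.1 CPM in CAF-vec and 23.6, 23.5 and 25.4 CPM in CAF-200 (a change of -1.16 on the log2 scale, standard error 0.171, adjusted *p* = 0.00804, limma). The change was -0.88 without CAF-vec replicate 1, not beyond the fold-change threshold, and -1.44 without CAF-vec replicate 2. With no filter its adjusted *p* was 0.0146 (limma), above the threshold for a call. *Dusp8*, which acts on the stress-activated kinases, changed by -0.96 on the log2 scale (limma's adjusted *p* = 0.00523) and *Dusp7*, a cytoplasmic relative of *Dusp6*, by -0.60 (limma's adjusted *p* = 0.0102). The direction among the phosphatases was thus mixed. The ratio of *Dusp6* to *Dusp3* CPM was 0.422 and 0.782 in CAF-vec and 1.82, 1.94 and 2.03 in CAF-200.

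Of 12 further feedback inhibitors and relatives, 11 were tested, of which 4 rose and 1 fell (11.9% and 18.6% of all genes tested), with a median log2 fold-change of 0.40. *Il17rd*, which encodes the FGF receptor antagonist SEF, was called lower, at 5.62 and 5.84 CPM in CAF-vec and 2.40, 2.27 and 2.34 CPM in CAF-200 (a change of -1.13 on the log2 scale, adjusted *p* = 0.00318, limma). *Ier3*, an immediate early gene, rose by 1.01 on the log2 scale with an adjusted *p* of 0.0158 (limma). Its size depended on the control, at 0.69 without CAF-vec replicate 1 and 1.34 without CAF-vec replicate 2. *Errfi1*, which encodes the EGF receptor inhibitor MIG6, *Phlda1* and *Lrig1*, which encodes another inhibitor of EGF receptors, rose by 0.84, 0.83 and 0.81 on the log2 scale (adjusted *p* of 0.00813, 0.0162 and 0.00822, limma). The list therefore held changes in both directions. *Spred2* and *Spred3*, the relatives of *Spred1*, differed by 0.27 and 0.32 (adjusted *p* of 0.0983 and 0.171, limma).

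Among 19 other ERK-responsive transcription genes, all tested, 6 rose and 0 fell at an adjusted *p* under 0.05 from limma, against 11.9% and 18.6% of all genes. *Egr2* and *Fosl1* were called higher. *Egr2* was at 5.33 and 5.73 CPM in CAF-vec and 13.6, 12.9 and 15.4 CPM in CAF-200 (a change of 1.26 on the log2 scale, adjusted *p* = 0.00300, limma). *Fosl1*, which encodes the AP-1 subunit FRA1, was at 55.0 and 46.5 CPM and at 115, 93.9 and 132 CPM (a change of 1.15 on the log2 scale, adjusted *p* = 0.00771, limma). *Egr1*, *Myc*, *Junb* and *Fos* rose by 1.17, 0.79, 0.78 and 0.43 on the log2 scale. *Fos* passed narrowly (adjusted *p* = 0.0469, limma) and did not with no filter (0.0704) or no variance trend (0.0523), and with no filter 5 genes of the list rose. The value for *Egr1* was 0.74 without CAF-vec replicate 1 and 1.59 without CAF-vec replicate 2. The median of the list was 0.11, since the other 13 genes, *Ccnd1* among them (log2 fold-change 0.15), passed in neither direction. *Srf*, *Elk1*, *Elk3* and *Elk4* are also among these 13, so the counts cover regulators as well as ERK-induced transcripts.

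Of 21 kinases and adaptors of the cascade tested, 0 rose and 3 fell, against 11.9% and 18.6% of all genes tested, and none was called. The 3 members of this list with the largest absolute changes were *Map2k2*, which encodes the MEK2 kinase (a change of -0.81 on the log2 scale, adjusted *p* = 0.0241, limma), *Rps6ka2*, a kinase downstream of ERK (-0.53, adjusted *p* = 0.0178, limma), and *Braf* (0.47, adjusted *p* = 0.125, limma). The sizes for *Map2k2* and *Braf* depended on the control, at -0.52 and 0.13 without CAF-vec replicate 1 and at -1.10 and 0.82 without CAF-vec replicate 2, where the adjusted *p* of *Braf* was 0.00016 (limma). *Gab1* was the other gene that fell (a change of -0.39 on the log2 scale, adjusted *p* = 0.0411, limma). It missed 0.05 with no filter (0.0599), quantile normalization (0.0656) and centring (0.0672), each of which left 2 genes that fell. The median of the list was -0.096, close to that of all genes tested, and turned to 0.00071 after centring on each sample's median.

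Upstream, 14 of 16 receptor tyrosine kinases were tested, of which 5 fell and 2 rose, against 18.6% and 11.9% of all genes. *Fgfr2* was called lower, at 35.2 and 36.6 CPM in CAF-vec and 16.6, 15.8 and 16.7 CPM in CAF-200 (a change of -1.11 on the log2 scale, adjusted *p* = 0.00253, limma). *Kdr* was also called lower, from 2.31 and 1.82 CPM to 0.690, 0.612 and 0.405 CPM (a change of -1.26 on the log2 scale, adjusted *p* = 0.00807, limma). This call depended on the processing. The change was -0.96 at a pseudocount of 1 CPM, not beyond the fold-change threshold, and -1.71 at 0.1 CPM. With no filter the adjusted *p* of *Kdr* was 0.0108 (limma). *Erbb2*, *Flt1* and *Ddr2* fell by 0.85, 0.67 and 0.50 on the log2 scale, while *Met* and *Flt4* rose by 0.67 and 0.60. *Flt4* was low, at 1.71 and 1.91 CPM in CAF-vec and 3.02, 3.01 and 2.96 CPM in CAF-200. The paper did not detect *Flt4* by RT-qPCR. With any 1 CAF-200 sample left out, the listed genes called here (*Dusp3*, *Il17rd*, *Egr2*, *Fosl1*, *Fgfr2* and *Kdr*) had adjusted *p* values of 0.0225 to 0.0480 (limma), above the threshold for a call, and *Dusp7*, *Ier3*, *Phlda1*, *Egr1*, *Fos*, *Map2k2*, *Rps6ka2*, *Gab1*, *Flt1*, *Ddr2*, *Met* and *Flt4* were each above 0.05. Without CAF-200 replicate 3, the adjusted *p* of *Errfi1* was 0.0519 and that of *Lrig1* 0.0520 (limma).

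**Figure D4:**
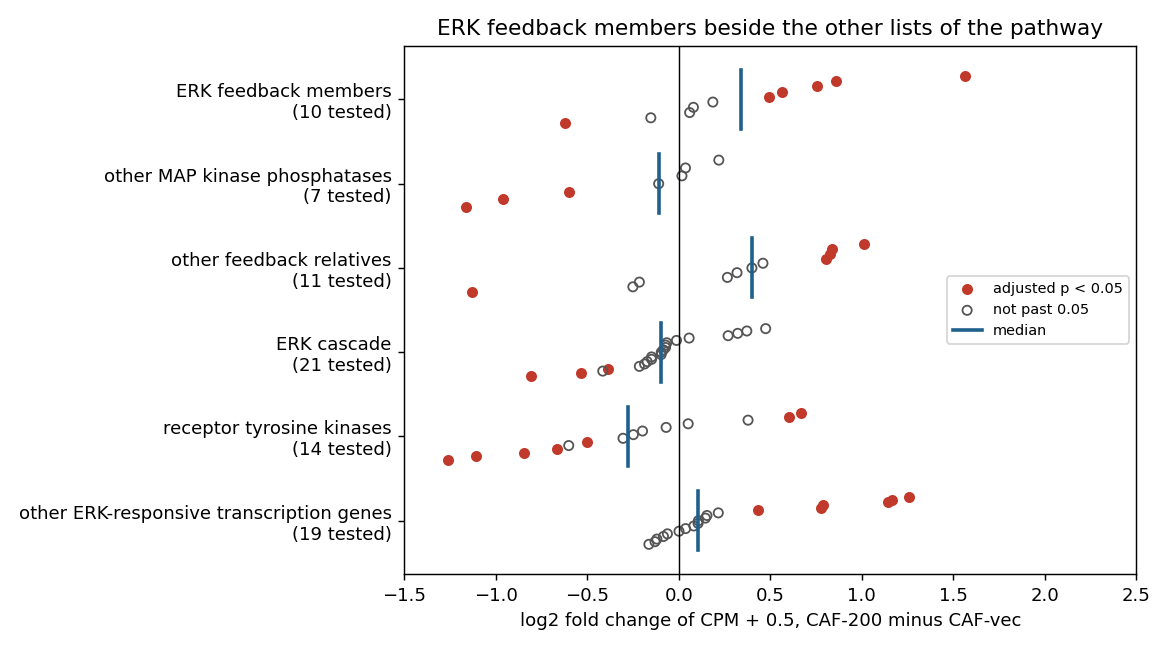
Log2 fold-change of CPM + 0.5 (horizontal axis) of every tested gene in the 10 members and in 5 further lists of the pathway, filled where the adjusted *p* was under 0.05, with a vertical bar at each list's median. The members (median 0.34) and the feedback relatives (0.40) lie to the right of the cascade (-0.096) and the receptors (-0.28).

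The 3 genes whose profile over the 5 samples was closest to that of *Etv4* were *Pbp2*, *Gm20721* and *Dmd*, with Euclidean distances of 0.207, 0.208 and 0.244 between mean-centred log2(CPM + 0.5) values. All 3 were far lower in level than *Etv4*. *Pbp2* was at 0.195 and 0.199 CPM in CAF-vec and 1.501, 0.931 and 1.86 CPM in CAF-200, and *Gm20721* at 0.166 and 0.129 CPM and at 1.28, 1.09 and 1.48 CPM. In CAF-vec, *Dmd* was listed at 0 in each sample, and the CAF-200 values were 0.822, 0.755 and 1.07 CPM. No other member was among the 3. They passed the filter on low values only through CAF-200, and their likeness to *Etv4* depended on the pseudocount: at 0.1 CPM the log2 fold-changes were 2.32, 2.48 and 3.28 for *Pbp2*, *Gm20721* and *Dmd* and 1.61 for *Etv4*.

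The samples were checked for other cells. Of 10 fibroblast markers, 9 exceeded 1 CPM in at least 1 sample, and their sum ranged from 7457 to 14150 CPM for CAF-vec and from 6609 to 7303 CPM for CAF-200, most of it *Col1a1*, *Col1a2* and *Vim*, which did not pass the test. Of the 9 tested, *Thy1*, *Dcn* and *Lum* rose, by 1.46, 2.75 and 2.82 on the log2 scale, and 0 fell at an adjusted *p* under 0.05 from limma. The 7 epithelial markers summed to at most 0.421 CPM and the 5 endothelial markers to at most 0.857 CPM in any sample, with *Krt18*, *Sftpc*, *Nkx2-1*, *Emcn* and *Cldn5* at 0 throughout. The 6 leukocyte markers had sums of 8.34 to 9.31 CPM (CAF-vec) against 12.2 to 12.8 CPM (CAF-200), with *Adgre1* and *Cd3e* at 0. *Lyz2* was higher by 1.91 on the log2 scale (limma's adjusted *p* = 0.00395), whereas *Cd68* and *Csf1r* differed by -0.14 and -0.46 without passing the test. The 5 pericyte or smooth muscle markers summed to 98.6 to 130 CPM and to 657 to 711 CPM, nearly all of it *Acta2*. This gene, which fibroblasts also express, was called higher, by 2.63 on the log2 scale (limma's adjusted *p* = 0.00123). *Cspg4* and *Des* differed by -0.41 and 0.021 without passing the test, and *Rgs5* and *Myh11* were too low to be tested. In CAF-200, the paper reports lower mRNA of most CAF markers by RT-qPCR and less α-SMA, the protein of *Acta2*, by immunocytochemistry. The *Acta2* mRNA thus went the other way from that protein here, and the reason was not tested. The part of these marker differences in the results for the members was not tested. Across all genes tested, log2 differences had an SD of 0.49 for the CAF-vec pair and of 0.19 to 0.20 for the pairs of CAF-200. Each of the 6127 genes listed at 0 in any CAF-200 sample was at 0 in all 3, and how this came about is not given in the sources used here. The printed CPM and the spread within groups may therefore be those of values adjusted beyond a scaling of counts.

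**Figure D5:**
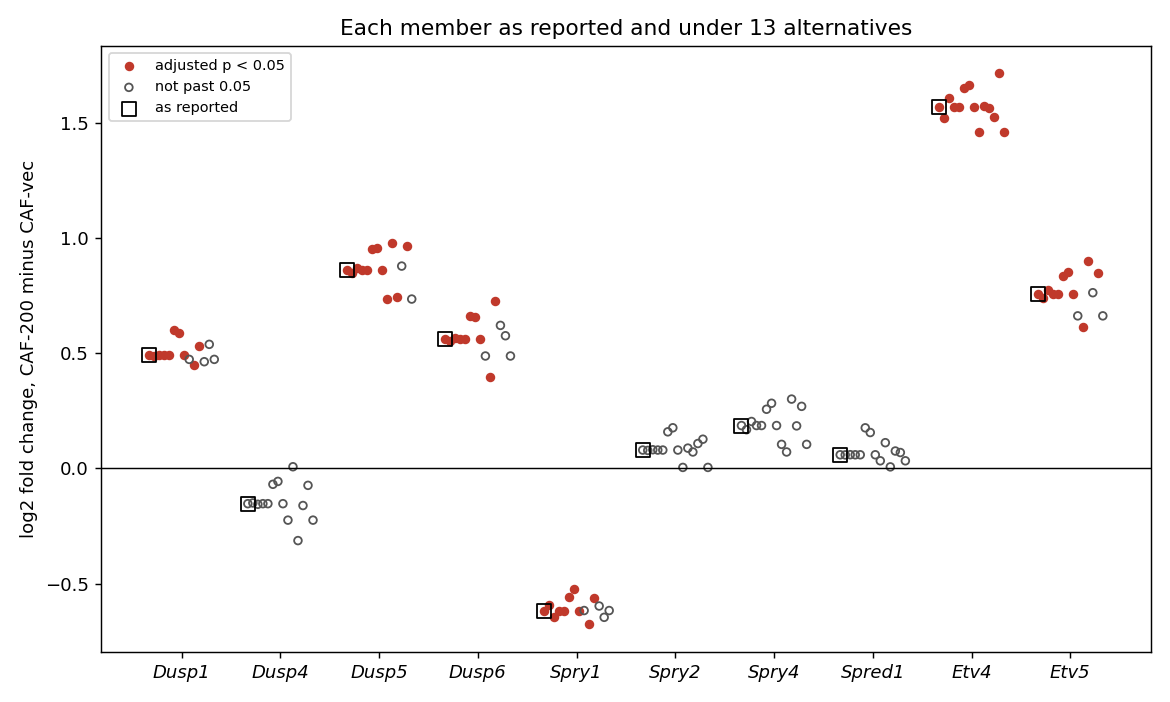
Log2 fold-change between CAF-200 and CAF-vec (vertical axis) of each member as reported (square) and under 13 alternatives (circles), filled where the adjusted *p* was under 0.05. *Etv4* remains between 1.46 and 1.71 and filled throughout, whereas *Dusp4* lies between -0.31 and 0.0073 and is never filled.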

How the data were processed

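The authors sequenced stranded mRNA libraries and deposited 1 table of CPM values for 21835 genes. The submitters' processing notes name FastQC, cutadapt, Trimmomatic, STAR, RSEM and edgeR, and the builds GRCm38 and mm10. The deposited CPM columns summed to 999956 to 1000111, and 24.8% to 57.8% of low values lay within 0.05 of a whole multiple of the commonest value near 0.01 CPM. Whole reads were thus not recovered, no count test was run and the depth per sample is unknown.

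A gene was tested if 2 or more samples reached 0.5 CPM, which left 12175. The fit used log2(CPM + 0.5), limma 3.58.1 (lmFit, eBayes with a variance trend), R 4.3.3 and Benjamini-Hochberg adjustment. The pseudocount understates changes of low genes. Names, exon lengths and 3′-UTRs came from GENCODE M21, which names 21795 of the genes. Figures and counts used Python 3.11.15, pandas 2.3.3, numpy 2.4.6 and matplotlib 3.10.9.

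The members and lists were chosen with earlier results of these data known. Genes named are all members, the listed genes that were called, the 3 largest changes of a list with no call, *Zeb1*, *Zeb2* and the 3 profiles nearest to *Etv4*. Other genes were named after their values were seen. Alternatives were other pseudocounts (1 and 0.1), filters (none, or 1 CPM in every sample), scalings, thresholds and variance model, each sample left out, and the replicate number as a block. Values of some listed genes are not reported here.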

Additional observations from a re-analysis of the deposited data

How the results depend on the processing

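The fit had 2 CAF-vec samples and 3 residual degrees of freedom, and the depth is unknown. Without a CAF-vec sample, limma assumes that the lone one varies like the CAF-200 samples. For the values that moved, the cause was not tested. EdgeR was not run, because whole reads were not recovered.

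Relaxing the fold-change threshold to 0.5 gave 541 genes higher and 677 lower (from 289 and 286), the replicate block gave 101 and 70, and an adjusted *p* under 0.05 gave 368 and 436. With each sample left out, 0 to 625 were called higher and 0 to 955 lower. Without CAF-200 replicate 1 or 3 limma called 0 genes in either direction, with 375 to 485 beyond a log2 fold-change of 1 at an unadjusted *p* under 0.05. Of the called genes 50.3% were higher, against 61.6% after centring and 39.6% without CAF-vec replicate 2. The 1 member called higher became 0 to 1 with each sample left out (1 at an unadjusted *p* under 0.05 throughout), and the 0 called lower became 1, *Spry1*, at a log2 fold-change beyond 0.5. The 5 members that rose became 1 to 5 and the 1 that fell 0 to 1 with each sample left out. With the replicate block 2 rose (*Dusp5* and *Etv4*) and 0 fell, with 5 and 1 at an unadjusted *p* under 0.05. In the lists, the block moved the 3 cascade genes that fell to 0 (2 at an unadjusted *p* under 0.05) and the 2 receptors that rose to 1, and 1 gene each was lost from the phosphatases that fell (*Dusp7*), the receptors that fell (*Ddr2*) and the ERK-responsive genes that rose (*Fos*). None of the listed genes called above (*Dusp3*, *Il17rd*, *Egr2*, *Fosl1*, *Fgfr2* and *Kdr*) stayed called with the block. Their adjusted *p* values were then 0.01519 to 0.02885 (limma). *Dusp4* turned to 0.0073 and *Zeb2* to 0.083 without CAF-vec replicate 1, and without CAF-vec replicate 2 they were -0.31 and -0.54.

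The deviations from the group means correlated at 0.249 for replicate number 1 and 0.134 for number 2, across genes. Of the pairs with unlike numbers, CAF-vec 2 with CAF-200 3 correlated at 0.119 and the others at -0.249 to -0.119. With 2 CAF-vec samples, the deviations of each mirror those of the other. The labels do not say that a number marks a shared culture, so the samples share only a number.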
